A study of Saccharomyces cerevisiae with 18 samples.

Results

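The 10 genes described here serve phosphate uptake, phosphate release and polyphosphate storage in the budding yeast Saccharomyces cerevisiae. They were chosen by name from the 6837 genes of the deposited count table: PHO84, PHO89, PHO5, PHO11, PHO12, PHO8, SPL2, VTC1, VTC3 and VTC4. The choice was made with earlier results of these data known, so their counts and medians beside those of all genes are descriptions. All 10 were found, and all 10 passed the filter on low counts. Polyadenylated RNA was sequenced from 6 groups of 3 libraries each: bre1Δ (bre1 deletion) at day 4 and day 1, set2Δ (set2 deletion) at day 4 and day 1, and wild type (WT) at day 4 and day 1. All groups were the haploid laboratory strain BY4742, grown in the rich medium YPD with no treatment, diluted and followed through chronological aging, the survival of a culture that has stopped dividing. The product of BRE1 attaches ubiquitin to histone H2B, and that of SET2 methylates histone H3 at lysine K36. Whether each deletion strain was 1 clone and whether replicates were separate cultures is not given in the sources used here, so p-values measure only the spread between these libraries, which may be technical.

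When phosphate is scarce, the kinase complex of the cyclin Pho80 and the kinase Pho85 is inhibited by Pho81. The transcription factor Pho4 then stays in the nucleus and, with Pho2, switches on the PHO genes by binding short DNA elements around a CACGTG or CACGTT core. The products take up phosphate (Pho84, Pho89), free it from organic phosphates outside the cell (Pho5, Pho11, Pho12) or in the vacuole (Pho8), turn down low-affinity uptake (Spl2) and build vacuolar polyphosphate, the phosphate store of yeast (Vtc proteins).

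All 10 genes carried at least 1 CACGTG within 600 bases before the start codon in the R64 reference, the sacCer3 sequence that the submitters' processing notes name, against 7.23% of 5999 protein-coding genes. CACGTT, read on either strand, stood before 7 of the 10 genes and 18.8% of all. Of the 26 other phosphate genes described further below, 11 carried CACGTG and 11 carried CACGTT in this window. The CACGTG hexamer is its own reverse complement, and the motifs do not overlap each other here. The 600 bases can reach into a neighbouring gene. In the shorter window of 250 bases before to 50 after the start codon, CACGTG stood at 3 of the 10 genes (SPL2, VTC1 and VTC4) and 2.92% of all, and CACGTT at 0 of the 10. A match is a description of the sequence and not a measured binding site. The 10 genes were chosen by name as phosphate genes, so their share beside that of all genes is a description and not a test. The stretches below show these hexamers, in capitals, for the genes with the widest range of levels (PHO89, PHO84 and SPL2), for the polyphosphate genes VTC1, VTC3 and VTC4, and for the acid phosphatase PHO5. All run 5′ to 3′ on the strand of the gene. They are chrXIII:26201-26400 (minus strand), chrII:798823-799002 (minus), chrVIII:375171-375260 (minus), chrII:431182-431331 (minus), chrV:302636-302685 (plus), chrXVI:517279-517378 (minus) and chrX:413490-413539 (minus).
PHO84: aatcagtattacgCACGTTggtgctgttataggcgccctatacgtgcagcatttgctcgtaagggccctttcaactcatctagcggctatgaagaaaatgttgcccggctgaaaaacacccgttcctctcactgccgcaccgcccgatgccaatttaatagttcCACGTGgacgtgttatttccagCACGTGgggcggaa
PHO89: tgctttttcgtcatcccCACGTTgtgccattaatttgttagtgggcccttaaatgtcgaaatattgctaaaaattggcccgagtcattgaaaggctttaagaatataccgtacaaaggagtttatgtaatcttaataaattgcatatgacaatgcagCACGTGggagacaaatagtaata
SPL2: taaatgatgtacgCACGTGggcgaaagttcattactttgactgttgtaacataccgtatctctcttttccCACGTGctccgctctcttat
PHO5: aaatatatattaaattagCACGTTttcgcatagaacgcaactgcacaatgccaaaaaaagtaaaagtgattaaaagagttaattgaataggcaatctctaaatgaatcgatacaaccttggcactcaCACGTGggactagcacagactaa
VTC1: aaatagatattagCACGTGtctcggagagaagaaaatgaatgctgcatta
VTC3: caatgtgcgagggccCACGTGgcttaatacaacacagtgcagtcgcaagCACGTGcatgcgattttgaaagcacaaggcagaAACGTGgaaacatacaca
VTC4: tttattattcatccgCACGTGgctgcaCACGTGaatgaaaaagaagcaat
PHO84 has CACGTG at 436 and 414 bases before the start codon, PHO89 at 323, PHO5 at 253, VTC1 at 157, VTC3 at 345 and 311, and VTC4 at 125 and 113. SPL2 has 4 copies, at 361, 147, 90 and 31 bases.

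**Figure D1:**
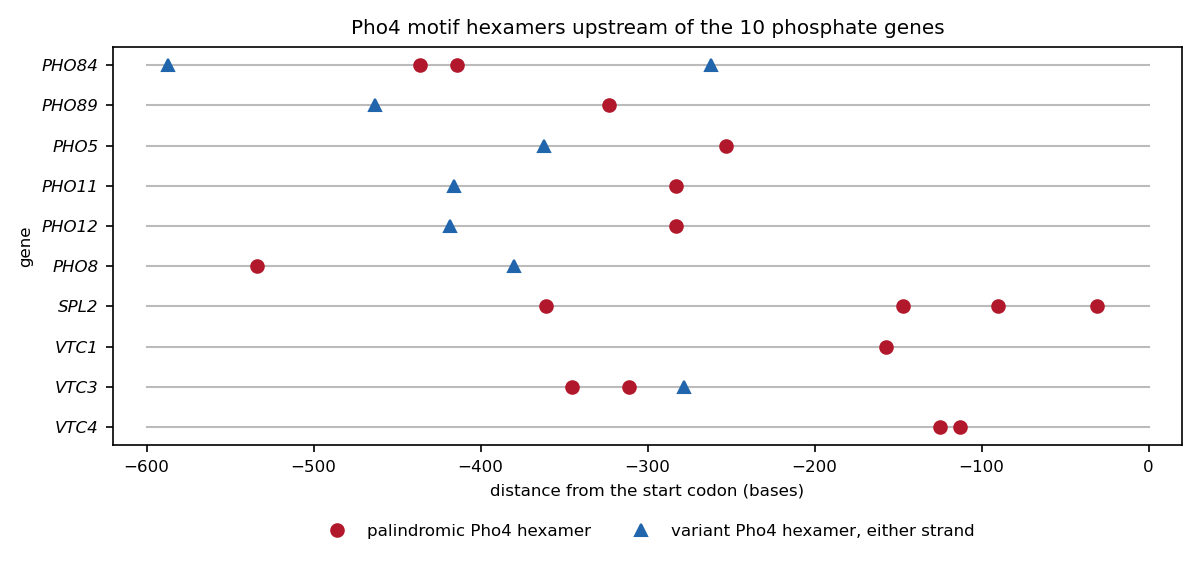
Positions of the palindromic hexamer (circles) and of its variant on either strand (triangles) in the 600 bases before the start codon of each gene (x axis, bases from the start codon). Every gene has at least 1 circle; SPL2 has 4, and PHO84, VTC3 and VTC4 have 2 each.

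The libraries held 8038470 to 29514490 counts. BRE1 had 0 or 1 counts in each bre1Δ library and 943 to 2757 in the others, and SET2 had 3 to 9 counts in each set2Δ library and 253 to 1308 in the others. Counts of the marker genes missing from BY4742 (LEU2, LYS2, URA3) reached 11 at most. MF(ALPHA)1, the alpha-factor gene of this mating type, had 481 to 26930 counts, and STE2, the receptor gene of the opposite mating type, 259 to 846. Counts of these genes were closest at day 4 in the deletions. They were 496 to 1141 and 355 to 846 in bre1Δ, and 481 to 954 and 359 to 669 in set2Δ. The share of counts in ribosomal protein genes was 8.08% to 8.26% in bre1Δ at day 4, 4.87% to 5.27% in bre1Δ at day 1, 4.25% to 4.38% in set2Δ at day 4 and 2.05% to 2.88% in the other groups; the part of this share in the results was not tested beyond a scaling computed without these genes. Replicates differed by more than counting error (chi-square per gene of 4.27 to 41.0 in 17 of 18 pairs), least in replicates 1 and 3 of bre1Δ at day 4 (1.52), and leaving out either of that pair moved the number of the 10 genes called in a comparison by at most 1. The levels are CPM, counts scaled to library depth, after TMM scaling, which lines libraries up on the bulk of their genes, given as mean ± SD of 3 libraries. At day 4 STE2 was at 27.5 ± 0.838 CPM in bre1Δ, 40.7 ± 2.55 in set2Δ and 13.4 ± 1.58 in WT. MF(ALPHA)1 was at 37.3 ± 2.81, 57.6 ± 0.757 and 174 ± 5.94 CPM. STE2 was thus present in this mating type, and the cause was not tested. Differences are log2 fold changes ± SE from edgeR's quasi-likelihood test, called at a Benjamini-Hochberg adjusted p under 0.05 over 6320 genes. The test uses 1 spread per gene for all 6 groups, although the WT replicates of day 1 differed most (chi-square per gene of 28.6 to 41.0). With library size as the only scaling, the median over all genes of the log2 fold change against WT was 0.31 in bre1Δ at day 4, 0.32 in bre1Δ at day 1, 0.16 in set2Δ at day 4 and 0.35 in set2Δ at day 1. With TMM these medians were 0.04, 0.02, -0.10 and -0.01. Small differences between strains therefore depend on the scaling.

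Per gene length, in the FPKM values the authors deposited (fragments scaled by gene length and depth), PHO89 ranked first of the 10 genes in 3 groups and was at rank 7 in set2Δ at day 1. Its level was 251 ± 11.1 FPKM in bre1Δ at day 4, 1587 ± 38.4 in bre1Δ at day 1, 411 ± 11.2 in set2Δ at day 4, 18.2 ± 1.95 in set2Δ at day 1, 2198 ± 38.1 in WT at day 4 and 573 ± 157 in WT at day 1 (SD, n = 3). VTC1 was first in the other 3 groups, at 325 ± 29.2 FPKM in bre1Δ at day 4, 476 ± 20.1 in set2Δ at day 4 and 478 ± 11.7 in set2Δ at day 1. PHO8 kept rank 2 or 3 throughout. PHO11 and PHO12 were the lowest in every group, at 2.48 to 10.1 FPKM. Most of the coding sequence of both occurs elsewhere in the genome (88.3% of short windows in PHO11 and 87.2% in PHO12, described below). Whether their low rank depends on how shared reads were placed was not tested. All FPKM levels of the 10 genes are relative to library totals, without TMM scaling.

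**Figure D2:**
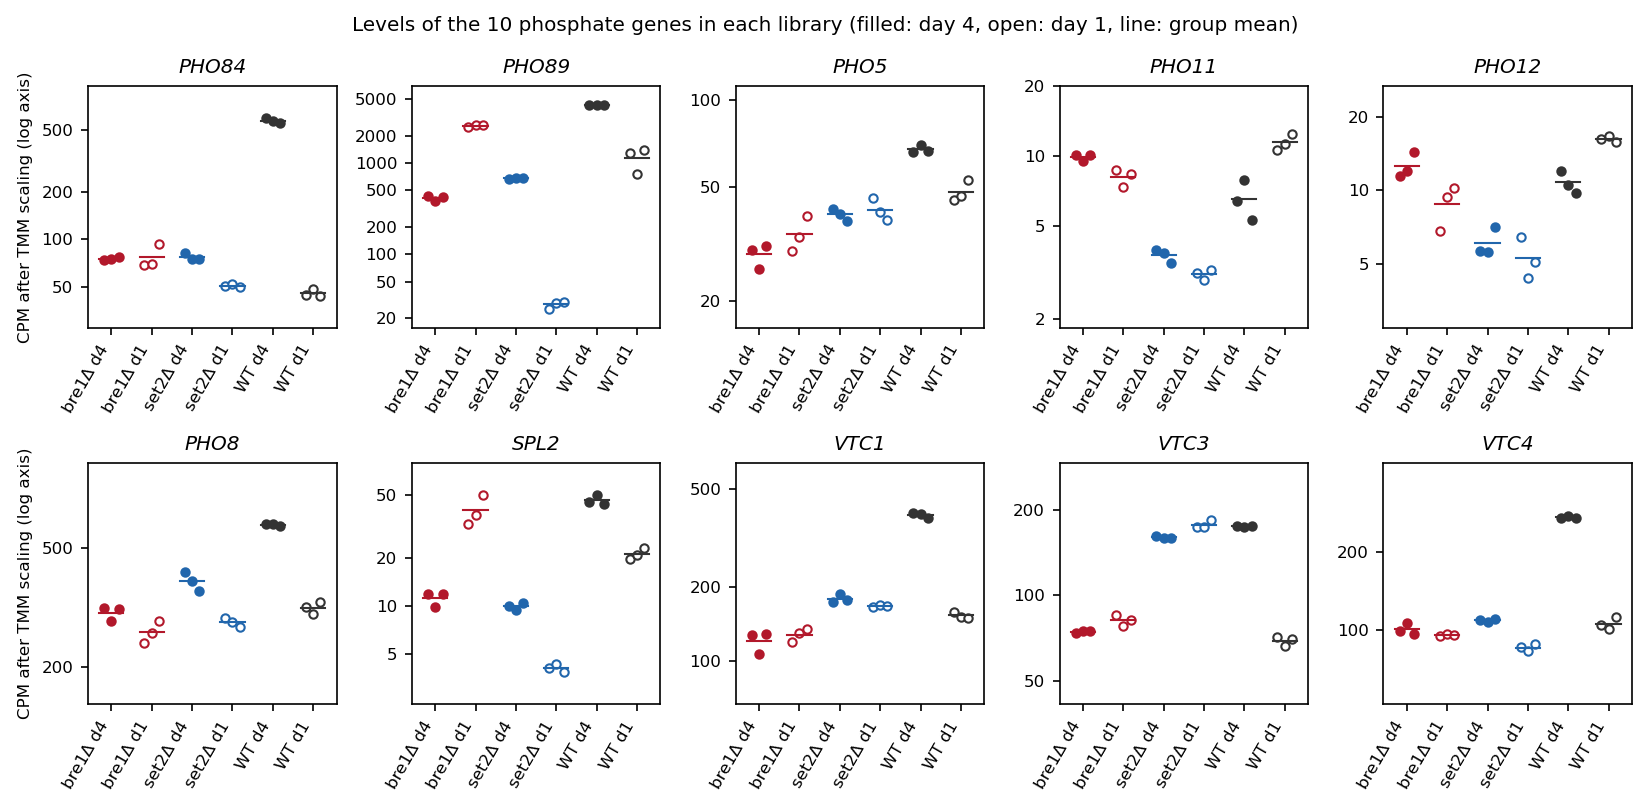
CPM after TMM scaling (y axis, log scale, a range of its own in each panel) of the 10 genes in each of 18 libraries. Points are libraries, lines are group means, filled points are day 4 and open points day 1. The WT libraries of day 4 have the highest mean in 7 panels; in VTC3 set2Δ at day 1 has the highest mean, and in PHO11 and PHO12 WT at day 1 has it.

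The 10 genes did not follow a common course over the 18 libraries. PHO89 and SPL2 were alike (Pearson's r of log2 CPM 0.95), and so were PHO84, VTC4, VTC1, PHO8 and PHO5 among each other (0.65 to 0.95) and PHO11 with PHO12 (0.89). VTC3 stood apart, with r of 0.67 to VTC1 and -0.86 to PHO11. These values describe 18 libraries in 6 groups, which share strains and days, and PHO11 and PHO12 also share sequence.

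**Figure D3:**
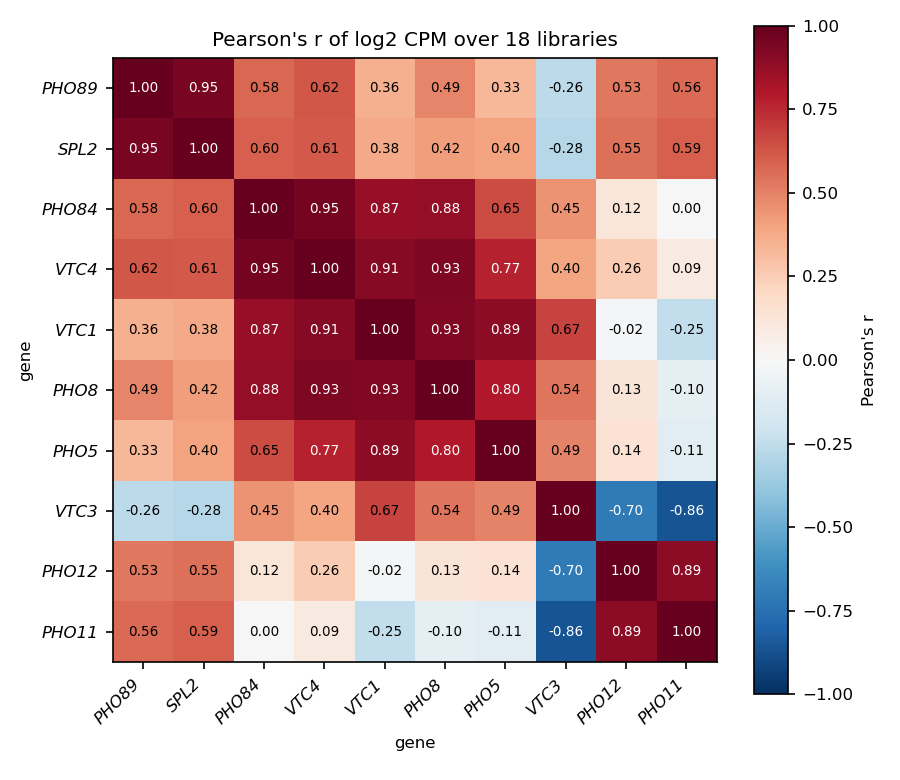
Pearson's r of log2 CPM (prior count of 2) between each pair of genes over 18 libraries, from blue (-1) to red (1). The pair PHO89 and SPL2 is at 0.95 and the block of PHO84, VTC4, VTC1, PHO8 and PHO5 at 0.65 to 0.95.

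In WT cells, 8 of the 10 genes were higher at day 4 than at day 1 and PHO11 and PHO12 were lower, where 77.7% of all genes tested passed, 37.2% higher and 40.5% lower. The median of the 10 was 1.23, against -0.02 for all genes. The largest of these changes was that of PHO84, the high-affinity proton-coupled phosphate transporter (YML123C, chromosome XIII, 24037 to 25800). It had 593, 571 and 549 CPM in the WT libraries of day 4, against 44.1, 48.1 and 43.8 CPM in those of day 1. The groups lay far apart, and PHO84 was 12.6-fold higher (3.65 ± 0.09, adjusted p = 1.38e-18 in edgeR). A bulk level does not tell more cells that express a gene from more RNA per cell. An antisense RNA, YNCM0001W, is annotated across all of PHO84 (chromosome XIII, 23564 to 26578). The strand setting of the counting is not given in the sources used here, so PHO84 reads and antisense reads cannot be told apart.

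PHO89, the sodium-coupled phosphate transporter that works at alkaline pH (YBR296C, chromosome II, 796798 to 798522), had 4288, 4369 and 4368 CPM in WT at day 4, against 1277, 764 and 1381 at day 1. The second replicate of day 1 was the lowest, and the groups did not overlap (1.93 ± 0.13, adjusted p = 3.38e-11 in edgeR). The SD of PHO89 in WT was 46.7 CPM at day 4 and 330 at day 1, while the SE rests on 1 spread for all groups. SPL2 (YHR136C, chromosome VIII, 374654 to 375100), whose product directs the low-affinity transporter Pho87 to the vacuole, had 45.4, 50.1 and 44.1 CPM in WT at day 4, against 19.8, 20.9 and 23.2 at day 1 (1.12 ± 0.12). The WT libraries of day 4 lay above all those of day 1.

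VTC1, VTC3 and VTC4 encode subunits of the vacuolar transporter chaperone, which makes polyphosphate and moves it into the vacuole, and all 3 genes rose in WT. VTC4 (YJL012C, chromosome X, 411234 to 413399), the subunit that polymerises phosphate, had 269, 275 and 269 CPM at day 4, against 105, 101 and 112 at day 1 (1.35 ± 0.05, adjusted p = 4.33e-16 in edgeR). VTC1 (YER072W, chromosome V, 302806 to 303195), the small membrane subunit, had 399, 393 and 379 CPM at day 4, against 158, 151 and 149.6 at day 1 (1.35 ± 0.06). VTC3 (YPL019C, chromosome XVI, 514511 to 517018), an accessory subunit, had 176, 174 and 175 CPM at day 4, against 71.3, 66.2 and 70.1 at day 1 (1.34 ± 0.04). These genes were between 2.53 and 2.55 times their level of day 1, with replicates close together. VTC2, the other accessory subunit and not among the 10 genes, was at 213 ± 3.92 CPM in WT at day 4 and 236 ± 14.0 at day 1.

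Among the phosphatases, PHO8, the vacuolar alkaline phosphatase (YDR481C, chromosome IV, 1418550 to 1420250), was at 595 ± 4.32 CPM in WT at day 4 and 316 ± 14.5 at day 1 (0.91 ± 0.06). PHO5, the main secreted acid phosphatase (YBR093C, chromosome II, 429548 to 430951), was higher too, at 67.6 ± 2.15 CPM at day 4, against 48.0 ± 4.16 at day 1 (0.49 ± 0.09). The acid phosphatases PHO11 (YAR071W, chromosome I, 225460 to 226863) and PHO12 (YHR215W, chromosome VIII, 552099 to 553502) went the other way. PHO11 was at 6.55 ± 1.28 CPM in WT at day 4 and 11.5 ± 0.964 at day 1 (-0.81 ± 0.13), and PHO12 at 10.8 ± 1.16 and 16.3 ± 0.462 CPM (-0.60 ± 0.14). The coding sequences of PHO11 and PHO12 differ at 4 of 1404 bases, and 88.3% and 87.2% of their 50-base windows occur elsewhere in the genome, as do 12.3% of those of PHO5. Counts of PHO11 and PHO12 therefore depend on how shared reads were placed and are uncertain for each gene by itself, while the other 7 genes have no shared window.

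In set2Δ cells, 5 of the 10 genes were higher at day 4 than at day 1 and VTC3 was lower, where 71.6% of all genes passed, 34.3% higher and 37.3% lower. The median of the 10 was 0.31, against -0.03 for all genes. With upper quartile scaling the same numbers of the 10 passed, 5 and 1, while 1668 of all genes were higher and 3029 lower, where with TMM these were 2168 and 2356. PHO89 had 665, 693 and 682 CPM in the set2Δ libraries of day 4, against 25.0, 29.3 and 29.9 CPM in those of day 1. That is a 24.2-fold higher level (4.60 ± 0.16, adjusted p = 9.08e-16 in edgeR), reached from the lowest of its 6 groups. SPL2 had 10.00, 9.56 and 10.5 CPM at day 4, against 4.10, 4.36 and 3.89 at day 1 (1.28 ± 0.17), with no overlap.

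PHO84 rose much less in set2Δ than in WT. It had 82.3, 74.6 and 75.0 CPM in set2Δ at day 4, against 50.6, 52.0 and 49.6 at day 1 (0.60 ± 0.09). PHO8 (0.45 ± 0.06) and VTC4 (0.35 ± 0.05) were also higher at day 4. VTC3 was lower by a small amount, at 162, 160.0 and 160.0 CPM at day 4, against 174, 175 and 184 at day 1 (-0.14 ± 0.04, adjusted p = 0.00589 in edgeR). VTC1 (0.10 ± 0.06), PHO5 (-0.05 ± 0.09), PHO11 (0.27 ± 0.18) and PHO12 (0.23 ± 0.18) did not pass the threshold, with adjusted p = 0.149, 0.616, 0.177 and 0.272 in edgeR.

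In bre1Δ cells PHO89 and SPL2 fell, where they rose in set2Δ and WT. PHO89 had 429, 386 and 419.8 CPM in the bre1Δ libraries of day 4, against 2468, 2593 and 2631 CPM in those of day 1. The level of day 4 was 6.23-fold lower (-2.64 ± 0.14, adjusted p = 4.58e-13 in edgeR). SPL2 had 12.04, 9.96 and 11.96 CPM at day 4, against 32.8, 37.3 and 50.1 at day 1 (-1.81 ± 0.12), again with no overlap. In all, 3 of the 10 genes were higher (PHO11, PHO12 and PHO8) and 4 lower (PHO89, SPL2, PHO5 and VTC3), where 76.4% of all genes passed, 37.9% higher and 38.4% lower. The median of the 10 was -0.06, against -0.02 for all genes.

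PHO84 stayed within its spread in bre1Δ, with 73.4, 74.8 and 77.4 CPM at day 4, against 68.3, 69.8 and 94.1 at day 1. The third replicate of day 1 was the highest of these (-0.04 ± 0.08, adjusted p = 0.696 in edgeR), and without it the value was 0.12 (adjusted p = 0.0598). VTC4 (0.07 ± 0.05, adjusted p = 0.166) and VTC1 (-0.08 ± 0.06, adjusted p = 0.25) did not pass the threshold of edgeR either. PHO12 was higher at day 4 (0.52 ± 0.15), and so was PHO8 by a small amount (0.21 ± 0.06). The calls of PHO11 (0.30 ± 0.13, adjusted p = 0.0435), PHO5 (-0.23 ± 0.10, adjusted p = 0.0356) and VTC3 (-0.13 ± 0.05, adjusted p = 0.0122) did not hold in edgeR when certain libraries were left out. For PHO11 the adjusted p became 0.137 when replicate 2 of bre1Δ at day 1 was left out and 0.0586 when replicate 3 was. It was 0.0903, 0.0518 and 0.111 without replicate 1, 2 or 3 of day 4. For PHO5 it was 0.0723 and 0.261 without replicate 2 or 3 of day 1 and 0.158 without replicate 2 of day 4, and for VTC3 0.0652 without replicate 1 of day 1.

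**Figure D4:**
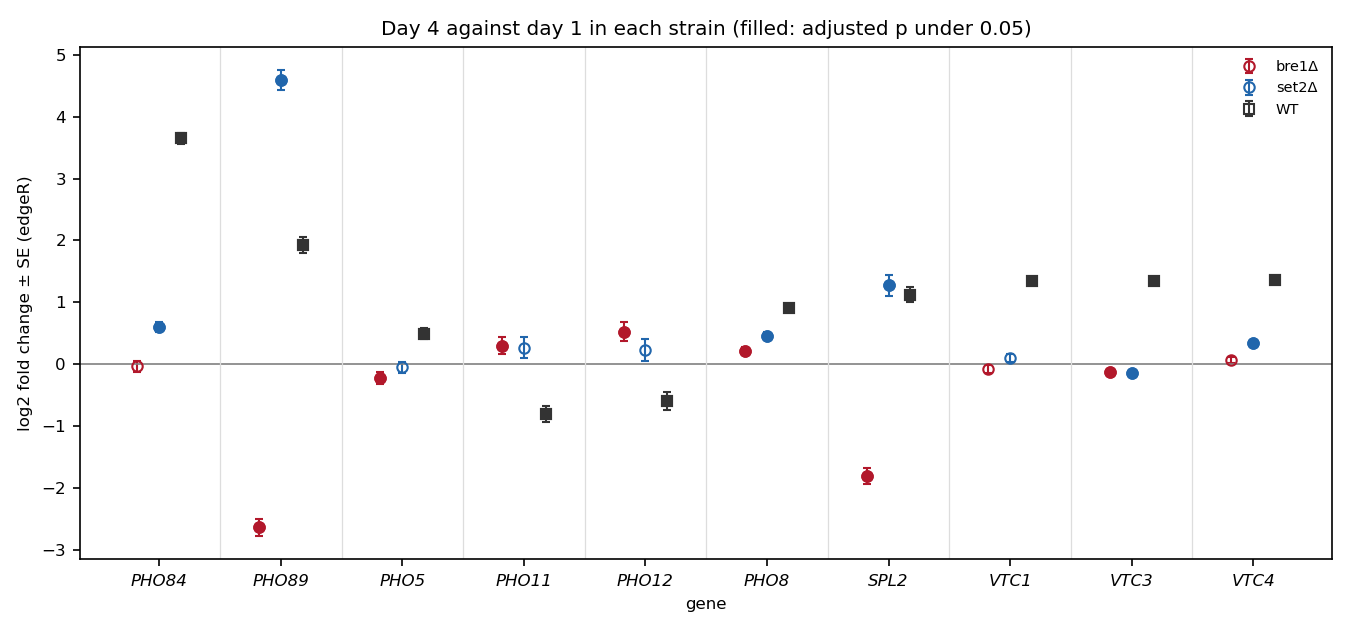
Log2 fold change of day 4 against day 1 ± SE from edgeR (y axis) for each of the 10 genes in bre1Δ, set2Δ and WT, 3 libraries per group. Filled symbols passed the adjusted p threshold. PHO89 lies at -2.64 in bre1Δ, 4.60 in set2Δ and 1.93 in WT, and the VTC genes lie near 1.35 in WT and near 0 in bre1Δ.

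The change between the days differed from that of WT for most of the 10 genes when the difference itself was tested. In bre1Δ it differed for all 10, of which 2 had the larger value in bre1Δ and 8 the smaller, where 76.9% of all genes passed, 40% with a larger and 36.9% with a smaller value. In set2Δ it differed for 9 of 10, of which 3 had the larger value and 6 the smaller, where 72.7% of all genes passed, 34.8% with a larger and 37.9% with a smaller value. For PHO84 the difference was -3.69 ± 0.12 in bre1Δ and -3.05 ± 0.12 in set2Δ, and for VTC3 it was -1.47 ± 0.06 and -1.48 ± 0.06. The difference of PHO89 was -4.57 ± 0.19 in bre1Δ and 2.67 ± 0.19 in set2Δ. SPL2 differed in bre1Δ (-2.94 ± 0.17), while in set2Δ the value was 0.15 ± 0.21 (adjusted p = 0.511 in edgeR). Both tests use the same WT libraries.

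At day 4, the deletion strains had lower levels than WT for most of the 10 genes; both strains were set against the same WT libraries. In bre1Δ against WT, 8 of 10 were lower and PHO11 was higher, where 86.4% of all genes passed, 41.6% lower and 44.8% higher. The median of the 10 was -1.33, against 0.04 for all genes. In set2Δ against WT all 10 were lower, where 78.7% of all genes passed, 44% lower and 34.7% higher, with a median of -0.97, against -0.10 for all genes. VTC3 had the smallest of these differences (-0.12 ± 0.04, adjusted p = 0.0133 in edgeR). With library size as the only scaling it passed as higher in set2Δ (0.13, adjusted p = 0.0109 in edgeR). It did not pass with upper quartile scaling (adjusted p = 0.485) or in a fit of only the libraries compared (adjusted p = 0.731). With library size only, 2 of the 10 genes were higher and 8 lower in bre1Δ, and 1 was higher and 9 lower in set2Δ, while over all genes 3401 were higher and 2071 lower in bre1Δ and 2980 higher and 1933 lower in set2Δ. With TMM these were 2832 and 2629 genes in bre1Δ and 2194 and 2778 in set2Δ.

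PHO84 at day 4 had 73.4 to 77.4 CPM in bre1Δ, against 549 to 593 CPM in WT, a 7.58-fold lower level (-2.92 ± 0.08, adjusted p = 8.43e-18 in edgeR). In set2Δ at that day it was 7.41-fold lower than in WT (-2.89 ± 0.09). PHO89 was 10.5-fold lower in bre1Δ (-3.40 ± 0.14) and 6.39-fold lower in set2Δ (-2.67 ± 0.14) than in WT at day 4. SPL2 was lower in bre1Δ (-2.03 ± 0.12) and in set2Δ (-2.22 ± 0.13). VTC1 was lower in bre1Δ (-1.69 ± 0.06) and in set2Δ (-1.13 ± 0.06), as was VTC4 (-1.42 ± 0.05 and -1.31 ± 0.05). VTC3 was lower in bre1Δ (-1.23 ± 0.04), at 73.7 to 74.8 CPM, against 174 to 176 CPM in WT.

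The differences of the phosphatases at day 4 ranged from -1.21 to 0.61. PHO5 was lower than in WT in bre1Δ (-1.21 ± 0.09) and in set2Δ (-0.76 ± 0.09), and PHO8 was lower in both (-0.97 ± 0.06 and -0.62 ± 0.06). PHO11 was higher in bre1Δ (9.97 ± 0.333 CPM) than in WT (6.55 ± 1.28 CPM), by 0.61 ± 0.13 on the log2 scale, and lower in set2Δ (3.77 ± 0.251 CPM), at -0.81 ± 0.16. PHO12 was lower in set2Δ (-0.82 ± 0.17), and in bre1Δ its value was 0.24 ± 0.14 (adjusted p = 0.123 in edgeR). That value passed with library size as the only scaling (0.51, adjusted p = 0.00251) and with upper quartile scaling (0.38, adjusted p = 0.0205).

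**Figure D5:**
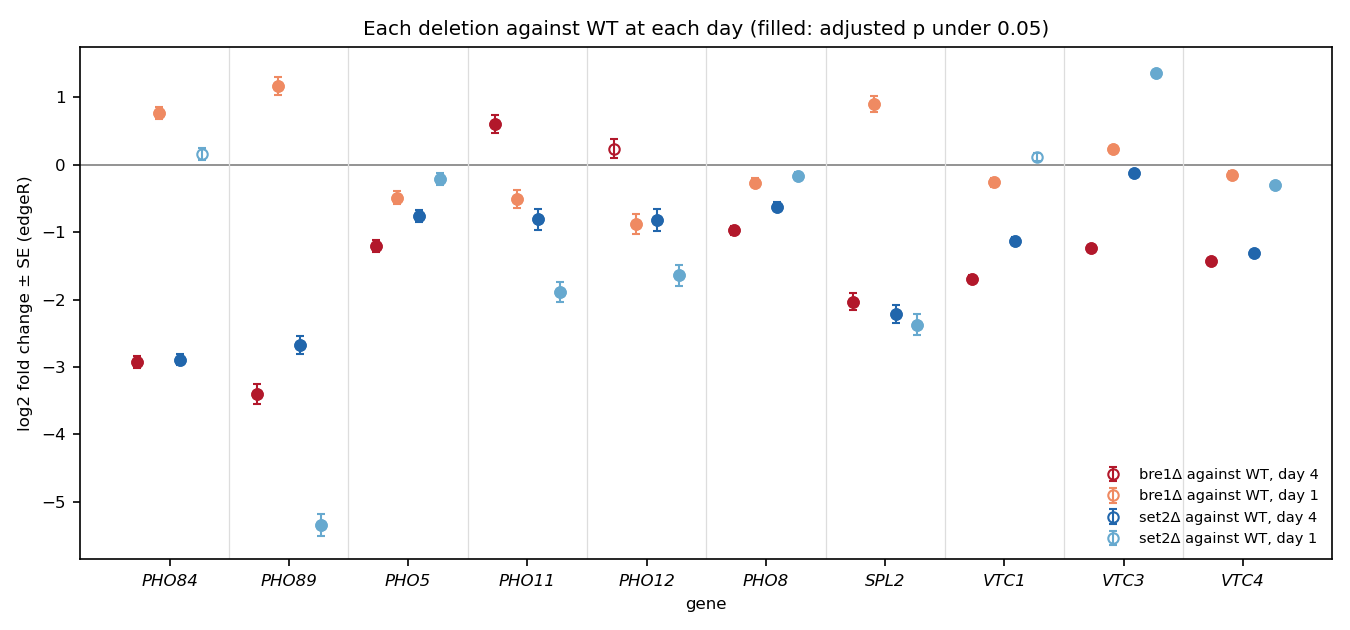
Log2 fold change against WT ± SE from edgeR (y axis) for bre1Δ and set2Δ at day 4 and at day 1, 3 libraries per group. Filled symbols passed the adjusted p threshold. PHO84 lies at -2.92 and -2.89 at day 4 in bre1Δ and set2Δ, and at 0.77 and 0.16 at day 1.

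At day 1 the deletions differed from WT in unlike ways. In bre1Δ, 4 of the 10 genes were higher (PHO84, PHO89, SPL2 and VTC3) and 6 lower, where 71.6% of all genes passed, 35.8% higher and 35.8% lower. In set2Δ, VTC3 was higher and 7 genes were lower, where 77.4% of all genes passed, 37.9% higher and 39.5% lower. With library size only, 5 of the 10 were higher and 1 lower in bre1Δ and 4 higher and 4 lower in set2Δ. Over all genes 3606 were then higher and 1214 lower in bre1Δ and 3793 higher and 1327 lower in set2Δ, where with TMM these were 2263 and 2261 in bre1Δ and 2393 and 2497 in set2Δ. The medians of the 10 were -0.20 in bre1Δ and -0.26 in set2Δ, against 0.02 and -0.01 for all genes. PHO89 had 2468 to 2631 CPM in bre1Δ, against 764 to 1381 in WT (1.17 ± 0.13, adjusted p = 8.96e-08 in edgeR). In set2Δ it had 25.0 to 29.9 CPM, a 40.6-fold lower level than in WT (-5.34 ± 0.16, adjusted p = 9.33e-17 in edgeR). SPL2 differed in the same directions, with 32.8 to 50.1 CPM in bre1Δ, 3.89 to 4.36 in set2Δ and 19.8 to 23.2 in WT (0.91 ± 0.12 in bre1Δ and -2.37 ± 0.15 in set2Δ against WT). The libraries of the 3 strains did not overlap for either gene.

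VTC3 stood high in set2Δ already at day 1, with 174 to 184 CPM, against 66.2 to 71.3 CPM in WT (1.36 ± 0.04, adjusted p = 3.01e-16 in edgeR). The set2Δ libraries of day 1 overlapped those of WT at day 4. In bre1Δ at day 1 VTC3 was higher by less (0.24 ± 0.05). PHO84 was higher than WT in bre1Δ (0.77 ± 0.09), and in set2Δ its value was 0.16 ± 0.09 (adjusted p = 0.109 in edgeR). That value passed with library size as the only scaling (0.52), with upper quartile scaling (0.27) and in a fit of the 6 libraries compared (0.20). VTC1 in set2Δ (0.12 ± 0.06, adjusted p = 0.0785) passed in the same 3 settings.

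PHO11 and PHO12 were lower than WT at day 1 in both deletions. PHO11 was at 8.16 ± 0.687 CPM in bre1Δ, 3.11 ± 0.158 in set2Δ and 11.5 ± 0.964 in WT (-0.50 ± 0.13 and -1.89 ± 0.15), and PHO12 was at 8.81 ± 1.79, 5.28 ± 1.04 and 16.3 ± 0.462 CPM (-0.88 ± 0.15 and -1.64 ± 0.16). PHO5 was lower in bre1Δ (-0.49 ± 0.09). The call of PHO11 in bre1Δ was lost with library size as the only scaling (adjusted p = 0.156), and so was that of PHO5 in bre1Δ (adjusted p = 0.0572). PHO8, VTC4, VTC1 in bre1Δ and PHO5 in set2Δ turned round under that scaling. PHO8 was lower in bre1Δ (-0.27 ± 0.06) and in set2Δ (-0.16 ± 0.06) but at 0.030 and 0.20 with library size only, and VTC4 was lower (-0.14 ± 0.05 and -0.30 ± 0.05) but at 0.15 and 0.062. VTC1 in bre1Δ (-0.26 ± 0.06) turned to 0.036, and PHO5 in set2Δ (-0.21 ± 0.09) to 0.16. Of these, PHO8 in set2Δ (adjusted p = 0.00331 in edgeR) and VTC4 in bre1Δ (0.00826) passed as higher under that scaling.

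In edgeR, 3 of these small calls of day 1 did not hold when certain libraries were left out. PHO5 in set2Δ against WT (adjusted p = 0.0422) was at 0.0979 when replicate 2 of set2Δ was left out, at 0.174 when replicate 3 was, and at 0.205 without replicate 3 of WT. For PHO8 in set2Δ against WT (adjusted p = 0.0261) it was 0.0549 and 0.0946 without replicate 2 or 3 of set2Δ, and 0.0504 and 0.0975 without replicate 1 or 3 of WT. For VTC4 in bre1Δ against WT (adjusted p = 0.0109) it was 0.0753 without replicate 3 of WT.

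Set against each other, the deletions lay furthest apart in PHO89 and SPL2 at day 1. At that day PHO89 was 91.3-fold higher in bre1Δ than in set2Δ (6.51 ± 0.17, adjusted p = 1.11e-17 in edgeR) and SPL2 9.71-fold higher (3.28 ± 0.14). At day 4 PHO89 was lower in bre1Δ (-0.72 ± 0.13), and the values of SPL2 (0.19 ± 0.15) and PHO84 (-0.03 ± 0.09) did not pass, with adjusted p = 0.241 and 0.732 in edgeR. VTC3 was lower in bre1Δ than in set2Δ at both days (-1.11 ± 0.04 at day 4 and -1.12 ± 0.04 at day 1), and PHO11 was higher (1.41 ± 0.15 and 1.38 ± 0.15). In all, 2 of the 10 genes were higher and 6 lower in bre1Δ at day 4, where 84.1% of all genes passed, 42.5% higher and 41.6% lower. At day 1, 6 were higher and 3 lower, where 79.4% of all genes passed, 39.4% higher and 40% lower. The medians of the 10 were -0.23 at day 4 and 0.38 at day 1, against 0.01 and -0.01 for all genes. PHO84 at day 4 changed sign with upper quartile scaling (0.013). The call of VTC4 at day 4 (-0.11 ± 0.05, adjusted p = 0.0364) was lost in edgeR without replicate 1 or 3 of bre1Δ (adjusted p = 0.104 and 0.173) and without replicate 1 or 3 of set2Δ (0.0719 and 0.101). The call of PHO5 at day 1 (-0.28 ± 0.09, adjusted p = 0.00961) was lost without replicate 1 of bre1Δ (0.0658) or of set2Δ (0.0663). PHO8 at day 1 (-0.10 ± 0.06, adjusted p = 0.148) passed without replicate 3 of bre1Δ (0.0288).

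The order of the 6 groups differed between genes. For PHO84 WT at day 4 stood alone at the top. The next groups, bre1Δ at day 4 and day 1 and set2Δ at day 4, overlapped in their libraries, followed by set2Δ and WT at day 1. For PHO89 no neighbouring groups overlapped in the order WT day 4, bre1Δ day 1, WT day 1, set2Δ day 4, bre1Δ day 4 and set2Δ day 1. SPL2 had the same order of the first 3 groups and of the last, with overlap between WT at day 4 and bre1Δ at day 1 and between the day 4 groups of the deletions. From the highest to the lowest group mean, PHO89 spanned 155-fold, PHO84 12.6-fold and SPL2 11.3-fold, while the other 7 genes spanned 2.27- to 3.69-fold.

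Of 26 other genes of phosphate signalling, transport and polyphosphate metabolism, 12 were higher and 9 lower at day 4 in bre1Δ, 13 higher and 6 lower in set2Δ, and 10 higher and 10 lower in WT. Against WT, 13 were higher and 10 lower in bre1Δ and 8 higher and 14 lower in set2Δ at day 4. At day 1, 11 were higher and 12 lower in bre1Δ and 7 higher and 15 lower in set2Δ. Over all genes tested, 37.9% were higher and 38.4% lower at day 4 in bre1Δ, 34.3% and 37.3% in set2Δ, and 37.2% and 40.5% in WT. Against WT at day 4, 44.8% were higher and 41.6% lower in bre1Δ, and 34.7% and 44% in set2Δ. Against WT at day 1 these shares were 35.8% and 35.8% in bre1Δ, and 37.9% and 39.5% in set2Δ. The medians of these 26 lay between -0.26 and 0.20 on the log2 scale in all 11 comparisons.

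SYG1, for a membrane protein with the SPX domain of phosphate sensing proteins, had 2055, 2121 and 2019 CPM in WT at day 4, against 210.4, 173 and 215 at day 1 (3.37 ± 0.09, adjusted p = 5.07e-18 in edgeR). It rose less in set2Δ (1.01 ± 0.08). At day 4 it was lower than in WT in bre1Δ (-3.32 ± 0.09) and in set2Δ (-2.16 ± 0.08), and its day effect differed from that of WT in both (-3.66 ± 0.12 and -2.36 ± 0.12). The low-affinity transporter gene PHO90 fell in WT between the days (-1.21 ± 0.07) and was higher in bre1Δ than in WT at day 4 (1.88 ± 0.06). In set2Δ at day 4 PHO90 was at 86.7 ± 5.73 CPM, against 33.8 ± 2.20 in WT. At day 1 it was at 139 ± 4.66 CPM in bre1Δ, 96.0 ± 1.99 in set2Δ and 78.1 ± 6.49 in WT. PHO88, of the endoplasmic reticulum, had a smaller day effect in set2Δ than in WT (-1.12 ± 0.10). Its level at day 4 was 154 ± 6.66 CPM in bre1Δ, 104 ± 3.66 in set2Δ and 196 ± 8.90 in WT. At day 1 these were 97.0 ± 4.77, 107 ± 3.35 and 92.8 ± 11.9 CPM.

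GIT1, which imports glycerophosphoinositol as a phosphate source, was at 8.64 ± 2.22 CPM in set2Δ at day 4 and 1.04 ± 0.291 at day 1 (3.06 ± 0.21). At day 1 it was lower in set2Δ than in WT (-2.73 ± 0.21), with 15 to 29 counts per library, and higher in bre1Δ than in set2Δ (3.41 ± 0.20), and its day effect was larger in set2Δ than in WT (2.49 ± 0.26). PHM6, of unknown molecular role and regulated by phosphate, was at 13.1 ± 2.43 CPM in bre1Δ and 2.64 ± 0.109 in WT at day 1 (2.30 ± 0.20). It was lower than WT in set2Δ at day 4 (-2.29 ± 0.26) and at day 1 (-1.57 ± 0.29), with 9 to 28 and 10 to 23 counts per library. It was higher in bre1Δ than in set2Δ at day 4 (2.98 ± 0.25) and day 1 (3.87 ± 0.23), rose in WT (1.24 ± 0.21), and its day effect was smaller in bre1Δ than in WT (-1.60 ± 0.27).

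PPN2, a vacuolar endopolyphosphatase that cuts polyphosphate chains, rose in bre1Δ to 157 ± 11.6 CPM at day 4, against 48.1 ± 6.23 at day 1 (1.70 ± 0.11), and fell in set2Δ (-1.07 ± 0.12). At day 4 it was higher in bre1Δ than in WT (1.90 ± 0.11) and than in set2Δ (2.44 ± 0.12), and its day effect in bre1Δ was larger than in WT (1.86 ± 0.16). VTC5, a further subunit of the polyphosphate polymerase complex, rose in bre1Δ (1.44 ± 0.05). Its level was also higher at day 4 in set2Δ, at 113 ± 5.99 CPM against 63.9 ± 1.16 at day 1, and in WT, at 83.7 ± 1.62 CPM against 49.1 ± 2.83 at day 1. GDE1, for a glycerophosphocholine phosphodiesterase, rose in bre1Δ (1.16 ± 0.06), at 115 ± 4.90 CPM at day 4, against 51.2 ± 2.82 at day 1. The set2Δ libraries of day 4 averaged 136 ± 2.47 CPM of GDE1, against 109 ± 2.37 for those of day 1, and WT libraries averaged 58.9 ± 2.27 CPM at day 4, against 60.5 ± 3.91 at day 1. VTC2 was lower in bre1Δ than in WT at day 4 (-0.57 ± 0.05) and day 1 (-0.58 ± 0.05). In set2Δ VTC2 was at 190 ± 5.24 CPM at day 4, against 213 ± 3.92 in WT. At day 1 it was at 211 ± 10.7 CPM in set2Δ, against 236 ± 14.0 in WT.

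PHO81, the inhibitor of the Pho80 and Pho85 kinase complex, was at 92.7 ± 1.26 CPM in bre1Δ at day 4 and 130.5 ± 7.33 at day 1 (-0.49 ± 0.05), and at 213 ± 6.21 CPM in set2Δ at day 4 and 136 ± 0.525 at day 1 (0.65 ± 0.05). At day 4 it was higher in set2Δ than in WT (0.83 ± 0.05) and lower in bre1Δ than in set2Δ (-1.20 ± 0.05). In WT PHO81 was at 120 ± 5.91 CPM at day 4 and 108 ± 7.12 at day 1. PHO3, the constitutive acid phosphatase next to PHO5, was lower than in WT in bre1Δ at day 1 (-1.33 ± 0.10) and in set2Δ at day 4 (-1.50 ± 0.10) and day 1 (-1.97 ± 0.10). In bre1Δ at day 4 PHO3 was at 71.8 ± 2.66 CPM, against 177 ± 6.14 in WT. VIP1, a kinase that makes inositol pyrophosphates, was higher at day 1 in bre1Δ than in WT (0.94 ± 0.05) and than in set2Δ (1.43 ± 0.05). PHO13, an alkaline phosphatase of small phosphorylated metabolites, was higher in bre1Δ than in set2Δ at day 4 (1.77 ± 0.09). Its level at that day was 63.3 ± 2.22 CPM in bre1Δ, 18.5 ± 1.44 in set2Δ and 30.1 ± 2.26 in WT.

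Outside the 10 genes, those with the course most like PHO84 over the 18 libraries were YET2 (Pearson's r of log2 CPM 0.99), THI73 (0.97) and DED1 (0.97). For PHO89 they were RPT3 (0.97), TIS11 (0.97) and BOP2 (0.96), and for PHO5 BDS1, FBP26 and TOS2 (0.96 each). For VTC4 they were YOL036W (0.99), THI73 (0.98) and PUF4 (0.98). These are the 3 highest of all genes tested for each, over libraries that share strains and days, and are given as a description.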

How the data were processed

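The authors deposited a table of raw counts per gene and a table of FPKM values for 18 libraries. The submitters' processing notes name FastQC 0.11.8, cutadapt 2.6, STAR 2.7.0b, HTSeq 2.0.2, R 4.2.0, DESeq2 1.36.0 and the build sacCer3; strand setting and annotation are not given in the sources used here. 4 emptied lines of the count file are not analysed here. The members and gene lists were chosen with earlier results of these data known. Counts were fitted with edgeR 4.0.16 in R 4.3.3: filterByExpr (6320 genes tested, 517 not), TMM, 6 group means over 18 libraries, two-sided quasi-likelihood F tests, Benjamini-Hochberg adjustment over all genes tested in each of 11 comparisons, threshold 0.05 (biological coefficient of variation 6.22%). SE is the size of the log2 fold change divided by the square root of F. The procedure was tested on simulated data with few changed genes, balanced in direction, and a common spread for all genes. That setting is simpler than these data, where most genes passed in every comparison, and it does not test the scaling. Named are the 10 genes, for each comparison up to 3 of 26 pathway genes with the largest change past the threshold, VTC2, PHO81 and the 3 genes most like PHO84, PHO89, PHO5 and VTC4. Fold changes of VTC2 and PHO81 are given only for some comparisons, which were picked by hand. Alternatives were DESeq2 1.42.0, limma 3.58.1 on log2(FPKM + 1) and log2(FPKM + 0.1), other scalings, no filter, only the libraries compared, a replicate block and leaving out each library. Gene positions and sequences are from RefSeq, assembly R64, the sequence of sacCer3. Replicate numbers were taken as names and not as pairs.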

Additional observations from a re-analysis of the deposited data

Results flagged for a closer look

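The change between day 4 and day 1 differed between a deletion strain and WT, by the interaction of strain and day in edgeR, in 19 of 20 cases among the 10 genes, where 76.9% of all genes tested passed for bre1Δ and 72.7% for set2Δ. Values are the day effect of the deletion minus that of WT on the log2 scale, with 3 libraries per group and the same WT libraries in both sets. In bre1Δ the transporters were at -3.69 (PHO84) and -4.57 (PHO89), SPL2 at -2.94, and the polyphosphate genes at -1.43 (VTC1), -1.47 (VTC3) and -1.28 (VTC4). Of the phosphatases PHO5 was at -0.72, PHO8 at -0.70, PHO11 at 1.11 and PHO12 at 1.12. In set2Δ the transporters were at -3.05 (PHO84) and 2.67 (PHO89), and the polyphosphate genes at -1.25 (VTC1), -1.48 (VTC3) and -1.01 (VTC4). PHO5 was at -0.55, PHO8 at -0.46, PHO11 at 1.08 and PHO12 at 0.82 in set2Δ. Adjusted p ranged between 3.61e-16 (PHO84 in bre1Δ) and 0.00335 (PHO12 in set2Δ).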

How the results depend on the processing

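For 10 of 11 comparisons the number of the 10 genes past the threshold stayed within 1.5 times in every setting. For bre1Δ against WT at day 1 it was 10, and 6 with library size as the only scaling and with limma on log2(FPKM + 1) or log2(FPKM + 0.1). The numbers among the 26 pathway genes stayed within 1.5 times in all settings. Leaving out each library in turn gave 5 to 6 genes for the days in bre1Δ (7 with all libraries), 6 in set2Δ and 10 in WT. It gave 9 for bre1Δ against WT at day 4, 9 to 10 at day 1, 10 for set2Δ against WT at day 4, 6 to 8 at day 1, 7 to 8 for bre1Δ against set2Δ at day 4 and 8 to 10 at day 1, and 10 and 9 for the differences in day effect of bre1Δ and set2Δ from WT. Directions that turned round were all of small values (log2), but some passed the threshold in the new direction. With library size only in edgeR, these were VTC4 in bre1Δ against WT at day 1 (adjusted p = 0.00826) and PHO8 in set2Δ at that day (0.00331). VTC3 in set2Δ against WT at day 4 was a further case (0.0109). All of these passed in both limma fits too. With library size only, limma on log2(FPKM + 1) and limma on log2(FPKM + 0.1), in that order, bre1Δ against WT at day 1 was at 0.030, 0.027 and 0.027 for PHO8, 0.036, 0.034 and 0.034 for VTC1, and 0.15, 0.15 and 0.15 for VTC4. In the same order, set2Δ against WT at day 1 was at 0.16, 0.15 and 0.16 for PHO5, 0.20, 0.20 and 0.20 for PHO8, and 0.062, 0.062 and 0.063 for VTC4. VTC3 in set2Δ against WT at day 4 was at 0.13, 0.13 and 0.13, and VTC1 between the days in set2Δ at -0.0042, -0.0066 and -0.0066. With upper quartile scaling VTC1 between the days in set2Δ was at -0.042 and PHO84 in bre1Δ against set2Δ at day 4 at 0.013. The difference in day effect of SPL2 between set2Δ and WT was -0.0080 with limma on log2(FPKM + 1). The FPKM values carry no TMM scaling, like library size only; the cause of each change was not tested. Leaving out single libraries moved PHO84 between the days in bre1Δ between -0.12 and 0.12, PHO5 between the days in set2Δ between -0.11 and 0.015, and PHO84 in bre1Δ against set2Δ at day 4 between -0.058 and 0.011. With the motif window of 250 bases before to 50 after the start codon, 3 of 10 genes carried CACGTG in place of 10. Deviations from the group means had a median r of -0.02 between same-numbered libraries of different groups (45 pairs, -0.16 to 0.27, 6 over 0.1). Between libraries of other numbers the median was 0.00 (90 pairs, -0.21 to 0.15, 9 over 0.1). Of 18 libraries, 9 correlated best with a library of their own number. These values do not settle whether the numbers mark pairs. With the replicate number as a block, the calls of PHO11 between the days in bre1Δ (adjusted p = 0.0553 in edgeR) and of PHO5 in set2Δ against WT at day 1 (0.0506) were lost, and no other call of the 10 genes moved. With DESeq2 the call of PHO11 between the days in bre1Δ was lost (0.062). Among single genes of the 10, library size only lost 5 calls and gained 4, upper quartile scaling lost 7 and gained 4, a fit of only the libraries compared lost 5 and gained 3, and no filter lost 1, besides the reversals above. A scaling computed without ribosomal protein genes lost PHO5 between the days in bre1Δ (0.0539) and VTC4 in bre1Δ against set2Δ at day 4 (0.0954). Depth limits PHO11 and PHO12 most, with 33 to 443 counts per library.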
